A study of Gallus gallus with 17 samples.

Results

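Adipose tissue of Fayoumi chickens was compared with adipose tissue of broiler chickens on 10 of the 17 arrays of a study that sought pathways linked to leanness. The Fayoumi group was the 5 arrays titled Fayoumi, from the line given as Fayoumi M 5.1, and the broiler group was the 5 arrays titled broiler with replicate numbers 2 to 6. All birds were males at 3 weeks of age, no treatment is given for any group, and each array carried total RNA of 1 adipose sample. The labels do not say from which fat depot the samples came or how the birds were fed, and they call the arrays biological replicates without saying more, so p-values reflect only how these samples spread. The array titled broiler replicate 1 was left out, a choice based on the measured values, because it lies with Leghorn, the third line of the study (Leghorn GHs 13), and results that passed are also given with it added.

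Adipose tissue stores triglyceride in adipocytes and releases it as fatty acids by lipolysis. In birds most fatty acids are made in the liver and reach adipocytes in very low density lipoproteins, so that fat mass depends on uptake as well as on local synthesis and breakdown. The Fayoumi is an Egyptian breed of light body, whereas broilers have been selected for fast growth and meat and also deposit much fat. The tissue also holds blood vessels, fibroblasts and immune cells, and in bulk samples fewer cells of a type and less RNA per cell cannot be told apart.

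The values were log2 expression per probe set, which is a set of short probes for 1 transcript, as normalized and deposited by the authors. A probe set was taken as above background when its value exceeded 2.29, and 56% to 59.1% of the chicken probe sets did so on each of the 17 arrays. The 9 adipocyte markers were all above background on all 10 arrays, and their summed level, on the log2 scale, lay between 17.57 and 17.84. The arrays compared were chosen by measured values, those of broiler 1: over the 92 and 69 probe sets, higher in one or the other line, that separate broiler 2 to 6 (position 0) from Leghorn 1 and 3 to 6 (position 1) by more than 2 log2 units, it lay at 1, the other broiler arrays between -0.066 and 0.055 and the Fayoumi arrays between 0.43 and 0.57. This position is a description and was not tested. An array titled Leghorn, replicate 2, lay at 0.058, with broiler, and entered no value of the comparison.

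Within the broiler group broiler 2, 3 and 4 stood apart from broiler 5 and 6. On the first principal component, which carried 64.4% of the variance over 19797 probe sets on these 10 arrays and broiler 1, the first 3 scored 0.276 to 0.591 and all others -0.236 to -0.107. The ACTB probe set at the 3' end exceeded that at the 5' end, a gap that widens with degraded RNA or short labelled products, by 1.55 to 1.92 on broiler 2 to 4, 2.08 and 2.35 on broiler 5 and 6, and 1.98 to 2.70 on the Fayoumi arrays. The counts of the gene lists are therefore also given against broiler 5 and 6 alone. Fayoumi 2 and 3 carried more skeletal muscle RNA than the other 3 Fayoumi arrays, with a summed level of the 32 muscle markers, on the log2 scale, of 13.89 and 12.80 against 10.01 to 10.51. Broiler 2 was at 12.22 and broiler 3 to 6 at 8.56 to 9.68.

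Differences between the lines were spread over many probe sets and were mostly moderate. Of 37693 chicken probe sets, 681 (1.81%) passed limma's moderated test at an adjusted p under 0.05. Of these 309 (0.82%) were higher in Fayoumi, by a median of 1.36 log2 units, and 372 (0.987%) were lower, with a median of -1.17. More than 2-fold differences were seen at 208 of the higher and 232 of the lower probe sets, and more than 8-fold differences at 27 and 21. The arrays of the 2 lines did not overlap at 680 of the 681, beside 2560 (6.79%) of all chicken probe sets. A lack of overlap at a probe set that passed thus adds little to its call. Over all 19797 probe sets above background on all 10 arrays the median difference was -0.02, 46.8% were higher in Fayoumi, and the middle 90% ran from -0.92 to 1.31. By the log2 level of the probe set, the share that passed was 0.620% under 6, 4.49% between 6 and 9, 4.07% between 9 and 12, and 6.26% above 12.

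**Figure D1:**
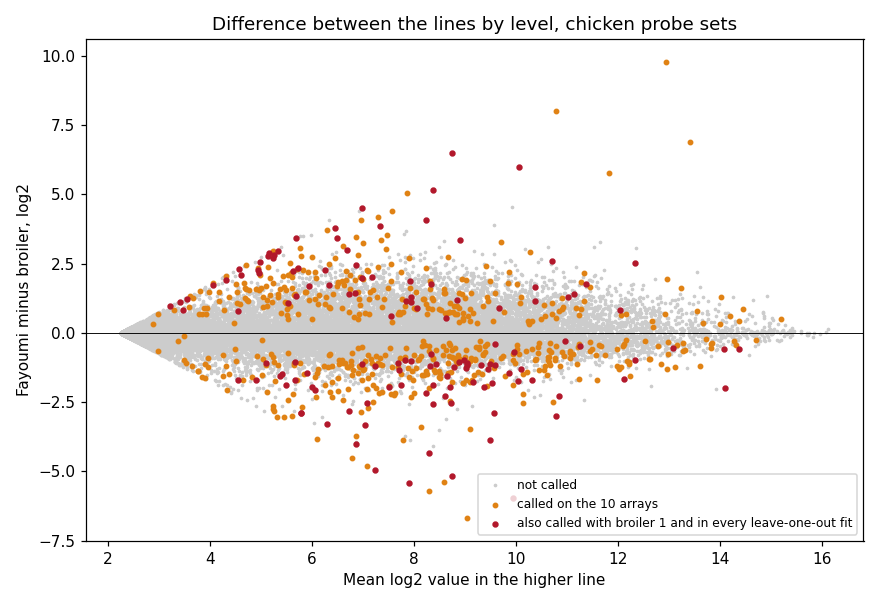
Each point is 1 of the 37693 chicken probe sets, with its mean log2 level in the higher line on the horizontal axis and the log2 difference, Fayoumi minus broiler 2 to 6, on the vertical axis. Grey points did not pass the test, orange points are among the 681 that did, and red points are the 130 that also passed with broiler 1 added and with each array left out in turn.

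The plot of difference against level shows that the 681 probe sets lay on both sides of 0. With broiler 1 added, 208 probe sets (0.552%) passed, 103 higher and 105 lower, and all 208 were among the 681. At the 681 probe sets broiler 1 lay nearer to the broiler mean at 239 and nearer to the Fayoumi mean at 442. The count also moved more than 1.5 times when 1 of 8 arrays was left out. It was 358, 322, 350, 323 and 409 without Fayoumi 1 to 5 and 405, 425 and 451 without broiler 2, 3 and 4, against 698 and 788 without broiler 5 and 6. Fayoumi against broiler 5 and 6 alone gave 910 (2.41%), of which 309 were among the 681, and without Fayoumi 2 and 3 the count was 154. A set of 130 probe sets (0.345%) passed on the 10 arrays, with broiler 1 added and in each of the 10 fits with 1 array left out. Of these 58 (0.154%) were higher and 72 (0.191%) lower, and they represent 99 named genes and 25 probe sets without a symbol. These 130 are said below to have held. That term does not cover 2 further fits: 87 of the 130 passed against broiler 5 and 6 alone and 72 without Fayoumi 2 and 3.

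Some of the genes that held lay outside the rule by which genes were named and were chosen after their values were seen. CPQ, a secreted carboxypeptidase, was at 6.68, 6.76, 6.69, 6.74 and 6.64 on Fayoumi 1 to 5 and at 9.75, 9.74, 9.70, 9.32 and 9.37 on broiler 2 to 6. The difference was -2.88 ± 0.10 (limma's SE, n = 5 and 5, adjusted p = 3.74e-06), or 0.000161 as adjusted p with broiler 1 added. EGFL6, a secreted protein that in mammals is made by adipose tissue, was at 7.58, 7.76, 7.66, 7.92 and 8.01 against 10.10, 10.77, 10.33, 11.28 and 11.40 (-2.99 ± 0.26, adjusted p = 0.00118). For both genes every Fayoumi array lay below every broiler array by more than 2 log2 units. SLC16A10, a carrier of aromatic amino acids and thyroid hormones, was higher in Fayoumi by 2.59 ± 0.30 (adjusted p = 0.00552) and NPTX2, a secreted pentraxin, by 1.75 ± 0.18 (adjusted p = 0.00247). UGCG, which makes glucosylceramide, differed by -1.89 ± 0.24 (adjusted p = 0.00832). For UGCG and SLC16A10 these values come from a probe set other than the brightest of the gene, and the brightest did not pass. MLYCD, which breaks down malonyl-CoA, the inhibitor of mitochondrial fatty acid entry, differed by -1.21 ± 0.10 (adjusted p = 0.000769).

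Many genes have more than 1 probe set, and a difference seen by more than 1 of them rests on more than 1 set of probes. Of the 681 probe sets 535 carried a symbol, for 481 genes, of which 133 had a single probe set on the array. For the others, each probe set that passed was compared with every further probe set of its gene. A pair in which both sets passed is thus counted in both orders. Of 570 such comparisons with a further set above background, 432 (75.8%) went in the direction of the set that passed. The further set passed in the same direction in 109 comparisons and in the opposite one in 6. There were 47 genes with 2 or more probe sets past the threshold in 1 direction and none in the other, 28 higher and 19 lower in Fayoumi. With broiler 1 added 10 of all genes met that condition. TCF7L2, a transcription factor of the Wnt pathway, and NUDT7, a peroxisomal coenzyme A hydrolase, had probe sets past the threshold in both directions. The 8 genes with the largest mean difference in each direction are described next, with values in the order of the replicate numbers, 1 to 5 for Fayoumi and 2 to 6 for broiler.

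Among the 8 higher in Fayoumi were 3 genes of antigen display and protein turnover. BF2, a class I molecule of the chicken major histocompatibility complex that presents peptides to T cells, was at 7.78, 8.02, 7.81, 7.55 and 8.16 against 2.66, 3.21, 3.55, 2.41 and 2.32 on one probe set (difference 5.04 ± 0.25, adjusted p = 5.12e-05). On a second it was at 12.23, 12.28, 12.35, 12.25 and 12.54 against 10.11, 10.23, 10.31, 9.20 and 9.10 (2.54 ± 0.26, adjusted p = 0.00311). The other 2 BF2 probe sets, also above background, differed by 0.04 and 0.35 (adjusted p = 0.728 and 0.362). The lines did not overlap on the first 2, but broiler 1 was at 7.58 and 10.64, and with it the adjusted p was 0.0872 and 0.0078. Genes of this complex differ in sequence between birds and share stretches with each other, and whether the probes bind all alleles alike was not tested. HHLA2, a B7 family ligand of T cells in humans, was at 9.5, 9.88, 9.87, 9.97 and 9.28 against 6.63, 7.46, 7.32, 4.44 and 6.33 on its brighter probe set (3.26 ± 0.54, adjusted p = 0.0255). Its second probe set was at 5.93 to 6.84 against 2.68 to 3.85 (adjusted p = 0.000845), and broiler 1, at 8.09 and 3.56, gave an adjusted p of 0.0644 and 0.000945. HERC4, a ubiquitin ligase, was higher on 2 probe sets, by 3.70 and 2.21, while 2 others above background differed by 1.49 and 0.17 (adjusted p = 0.288 and 0.542), and broiler 1 lay with Fayoumi on both (adjusted p = 0.137 and 0.24 with it).

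SHQ1 was the member of this group that held on 2 probe sets. A further SHQ1 probe set was not above background on all 10 arrays. It assembles the H/ACA ribonucleoproteins that modify ribosomal RNA. Its brighter probe set was at 6.57, 6.79, 6.40, 6.94 and 6.74 against 3.39, 4.16, 2.36, 4.46 and 4.18, a difference of 2.98 ± 0.38 (adjusted p = 0.00848, and 0.0113 with broiler 1). Its second was at 4.74 to 5.11 against 2.41 on all 5 broiler arrays and 2.44 on broiler 1, with an adjusted p = 7.73e-07. No array of one line reached the other on either. PARP8, an ADP-ribosyltransferase, was higher on 3 probe sets by 2.21, 2.48 and 2.38, and GIT2, which regulates ARF GTPases, on 2 by 1.24 and 2.70, with a further GIT2 set at 0.35 (adjusted p = 0.306). Broiler 1 lay near or above the Fayoumi values for both, and with it the adjusted p was 0.365, 0.384 and 0.374 for PARP8 and 0.156 and 0.104 for GIT2. ADSS1, which makes adenylosuccinate in AMP synthesis, was higher by 1.82 and 1.98 (adjusted p = 0.047 and 0.0491). LOC770705, to which no role is given here, was at 12.78, 13.26, 13.62, 13.85 and 13.62 against 6.94, 5.07, 3.34, 8.05 and 9.25 on its brighter probe set (6.89 ± 1.05, adjusted p = 0.0174), the gene with the largest mean difference of the 47. Broiler 1 was at 14.64, above all 10 arrays, and the adjusted p with it was 0.279.

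Some of these calls were lost when any 1 of several arrays was left out. For HHLA2's brighter probe set the call was lost without any 1 array other than broiler 3 to 6 (adjusted p = 0.0588 to 0.0805), and for the 2 sets of ADSS1 without any 1 array other than broiler 5 and 6 (0.0882 to 0.127) and without any 1 array at all (0.057 to 0.118). HERC4's brighter set lost it without Fayoumi 1, 2, 3 or 4 (0.0518 to 0.0553) and LOC770705's without Fayoumi 2, 3, 4 or 5 (0.0512 to 0.0575). Its second set lost it without any 1 array other than Fayoumi 2 and 3 (0.0567 to 0.111). The 3 sets of PARP8 lost it without Fayoumi 1, 2 or 4 (0.0517 to 0.0526), without any 1 array other than Fayoumi 3 and broiler 2, 5 and 6 (0.0532 to 0.0628), and without any 1 other than broiler 2, 5 and 6 (0.0766 to 0.0978).

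Of the 8 genes lower in Fayoumi on 2 probe sets, GSKIP showed the largest mean difference and SCD5 concerns lipid synthesis. GSKIP, which binds glycogen synthase kinase 3 and protein kinase A, was at 3.98, 3.56, 3.39, 4.14 and 2.76 against 7.68, 8.93, 8.02, 9.60 and 9.48 on one probe set, a difference of -5.17 ± 0.45 (adjusted p = 0.00107). On the other it was at 4.88, 5.20, 6.18, 6.08 and 5.75 against 8.71, 9.63, 8.70, 10.31 and 10.08 (-3.87 ± 0.41, adjusted p = 0.00354). Broiler 1, at 9.73 and 10.34, lay just above the other broiler arrays, and Leghorn 1 and 3 to 6 were at 7.80 to 9.96 and 8.68 to 10.48, so that Fayoumi was the line that stood apart. SCD5, a stearoyl-CoA desaturase that makes monounsaturated fatty acids, was at 7.63, 7.87, 7.82, 7.87 and 7.37 against 9.24, 9.40, 9.94, 9.54 and 9.56, a difference of -1.82 ± 0.15 or 3.54-fold (adjusted p = 0.000758). Its second probe set differed by -1.96 ± 0.18 (adjusted p = 0.00167). Broiler 1, at 8.40 and 6.34, lay between the lines on both, and with it the adjusted p was 0.0254 and 0.0266.

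LRRC40, a leucine-rich repeat protein, was at 6.0, 5.87, 5.75, 6.11 and 5.34 against 8.46, 8.66, 8.55, 8.23 and 8.01 (-2.57 ± 0.17, adjusted p = 0.000291), and its second probe set differed by -1.70 ± 0.22 (adjusted p = 0.0091). GSKIP, SCD5 and LRRC40 held on both of these probe sets, and 2 further sets of SCD5 and of LRRC40 were not above background on all 10 arrays. CAMK4, a calcium and calmodulin-dependent kinase, differed by -1.69 on a probe set that held (adjusted p = 0.00542) and by -1.71 on one that lost the call with broiler 1 (adjusted p = 0.269). LOC422090 likewise differed by -1.65 on a probe set that held and by -1.22 on one that did not (adjusted p = 0.263 with broiler 1). The remaining 3 genes rested on the exclusion of broiler 1, which lay near Fayoumi or below it. LGALS1B, a galectin that binds beta-galactosides, differed by -1.98 on one probe set, and on the other, where all Fayoumi arrays were not above background, broiler was at least 4.11-fold higher. KNSTRN, a protein of the mitotic spindle and kinetochore, differed by -1.64 and -1.50, and PRPSAP1, a partner of phosphoribosyl pyrophosphate synthetase, by -1.49 and -1.58. With broiler 1 the adjusted p was 0.154 and 0.2 for LGALS1B, 0.131 and 0.332 for KNSTRN and 0.252 and 0.368 for PRPSAP1. CAMK4's first set lost the call without any 1 array other than broiler 6 (0.0526 to 0.13), PRPSAP1's first without any 1 other than broiler 5 (0.0639 to 0.0997), and KNSTRN's sets without any 1 other than broiler 5 and 6 (0.0512 to 0.0729). LGALS1B lost it without Fayoumi 1, 2 or 4 on one set (0.0521 to 0.056) and without any 1 array other than broiler 3 to 6 on the other (0.055 to 0.0612).

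**Figure D2:**
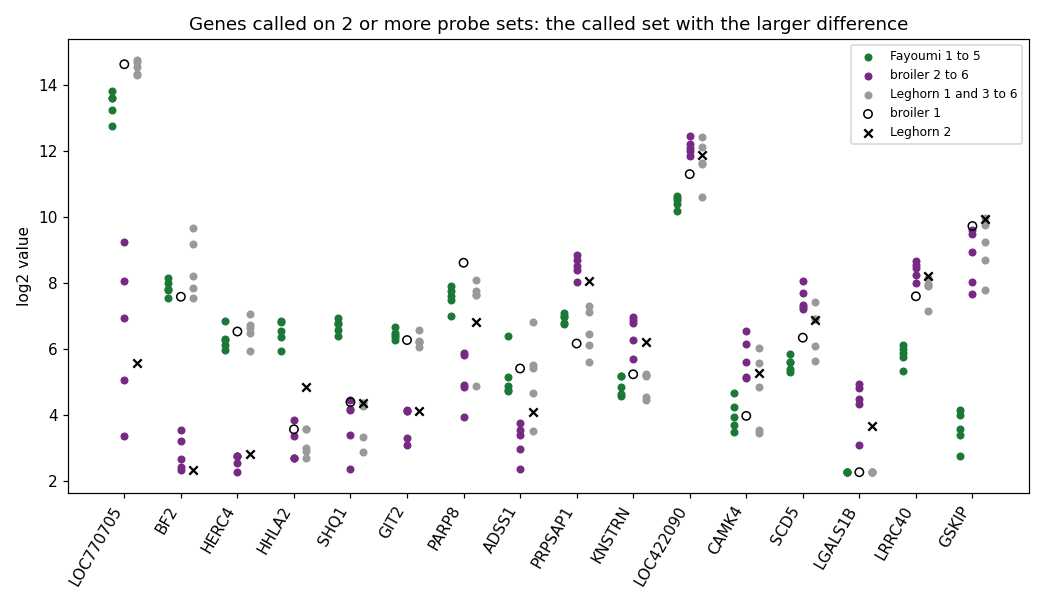
The 16 genes described above, 8 higher and 8 lower in Fayoumi, are shown by their probe set with the larger difference among those that passed, with the log2 expression on the vertical axis and 1 point per array. Fayoumi is green, broiler 2 to 6 purple, Leghorn 1 and 3 to 6 grey, broiler 1 an open circle and Leghorn 2 a cross. The Fayoumi and broiler 2 to 6 points do not overlap for any of the 16. The 16 were picked from the 681 probe sets that passed, of which 680 have no overlap, beside 6.79% of all chicken probe sets. Broiler 1 lies near or above the Fayoumi values for HERC4, PARP8 and GIT2 and at the broiler level for GSKIP and SHQ1.

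The plot of these genes by array also shows that Leghorn 1 and 3 to 6 lay with Fayoumi for some genes and with broiler for others. BF2 was at 7.55 to 9.68 on those Leghorn arrays on its probe set with the larger difference, as in Fayoumi, whereas HHLA2's second probe set was at 2.68 to 3.56, as in broiler. Further genes with more than 1 probe set past the threshold were chosen after their values were seen. TALDO1, transaldolase of the pentose phosphate pathway, was lower on 2 probe sets that both held, by -0.98 ± 0.13 and -1.44 ± 0.18 (adjusted p = 0.00934 and 0.00818). PDGFD, a growth factor for mesenchymal cells, was higher on 2, by 1.64 ± 0.14 and 1.28 ± 0.17 (adjusted p = 0.000934 and 0.00909), of which the first held. A further PDGFD set differed by 1.32 (adjusted p = 0.0839).

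Many of the large differences were found at 1 probe set of a gene and were not shared by its other probe sets. Some were shared: LOC770705, GSKIP and BF2, with differences up to 6.89, -5.17 and 5.04, each passed on 2 probe sets, as given above. The genes described below are those with a symbol that does not start with LOC. Of the 48 probe sets that passed with a more than 8-fold difference, 30 carried a symbol. For 22 of these another probe set of the gene was above background. For 13 of the 22 every such other set differed by less than 1 log2 unit, and for 8 of the 22 another set passed in the same direction. Why the probe sets of a gene differed was not tested.

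On the higher side, DDTL, a relative of D-dopachrome tautomerase, was at 8.62, 8.42, 8.30, 8.23 and 8.34 against 3.37, 3.25, 3.72, 3.17 and 2.65 (5.15 ± 0.18, adjusted p = 4.95e-06). Broiler 1, at 2.87, lay with broiler, and DDTL held. The other DDTL probe set above background differed by -0.43. SRI, the calcium-binding protein sorcin, was at 11.77 to 11.90 on all Fayoumi arrays against 8.51, 2.93, 8.83, 4.08 and 5.84 on broiler, a difference of 5.79 ± 1.15 (adjusted p = 0.0493), with other probe sets at -0.29 and -0.39. The spread of SRI among the broiler arrays was wide, and no broiler array reached the Fayoumi values. FZD6, a receptor for Wnt ligands, was at 7.75 to 8.54 against 3.70 to 4.37 (adjusted p = 3.15e-05) and held, with other probe sets at 0.72 and 0.21. UBXN4, which takes part in degradation of proteins from the endoplasmic reticulum, differed by 3.47 on one probe set (adjusted p = 0.000712) and by 0.19, 0.30 and 0.39 on others. MLANA, a melanosome protein, and GZMA, a protease of cytotoxic lymphocytes, each had 1 probe set with differences of 4.09 ± 0.40 (adjusted p = 0.00196) and 3.53 ± 0.39 (adjusted p = 0.00433). Broiler 1 lay at or above the Fayoumi level for SRI, UBXN4, MLANA and GZMA, and with it the adjusted p was 0.291, 0.13, 0.153 and 0.239. SRI lost its call without any 1 array other than broiler 4 (0.0504 to 0.126).

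On the lower side, CANX, the endoplasmic reticulum chaperone calnexin, was at 4.30, 4.01, 3.54, 2.87 and 5.16 against 9.51, 10.17, 9.33, 10.54 and 10.22, a difference of -5.98 ± 0.44 (adjusted p = 0.000428). A second CANX probe set differed by 0.89, in the opposite direction. TNFRSF1B, a receptor for tumour necrosis factor, was at 2.26, 2.63, 2.56, 2.57 and 2.51 against 7.32, 7.48, 7.43, 8.63 and 8.71 (-5.41 ± 0.31, adjusted p = 0.000108), with other sets at -0.47, 0.80 and 1.15. RHOG2 was at 2.58 on all Fayoumi arrays and on broiler 1 against 7.71 to 9.74 (adjusted p = 0.000235), and its other sets differed by -0.02 and 0.02. CMTM3, a membrane protein of the chemokine-like factor family, was at 2.26 to 2.45 against 6.49 to 7.95 (adjusted p = 0.000163), with others at 0.06 and 0.46. CA5A, a mitochondrial carbonic anhydrase, and SLC4A1AP, an adaptor protein, were not above background on any Fayoumi array or on broiler 1, so that broiler 2 to 6 were at least 27.6-fold and 22.5-fold higher (adjusted p = 0.000419 and 0.000101). Their other probe sets differed by -0.31 for CA5A and by -0.02, 0.13 and 0.17 for SLC4A1AP. TMEM268, a membrane protein with 1 probe set, differed by -4.35 ± 0.23 (adjusted p = 7.23e-05). CANX, TNFRSF1B, CMTM3 and TMEM268 held, whereas RHOG2, CA5A and SLC4A1AP had an adjusted p of 0.119, 0.124 and 0.115 with broiler 1.

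**Figure D3:**
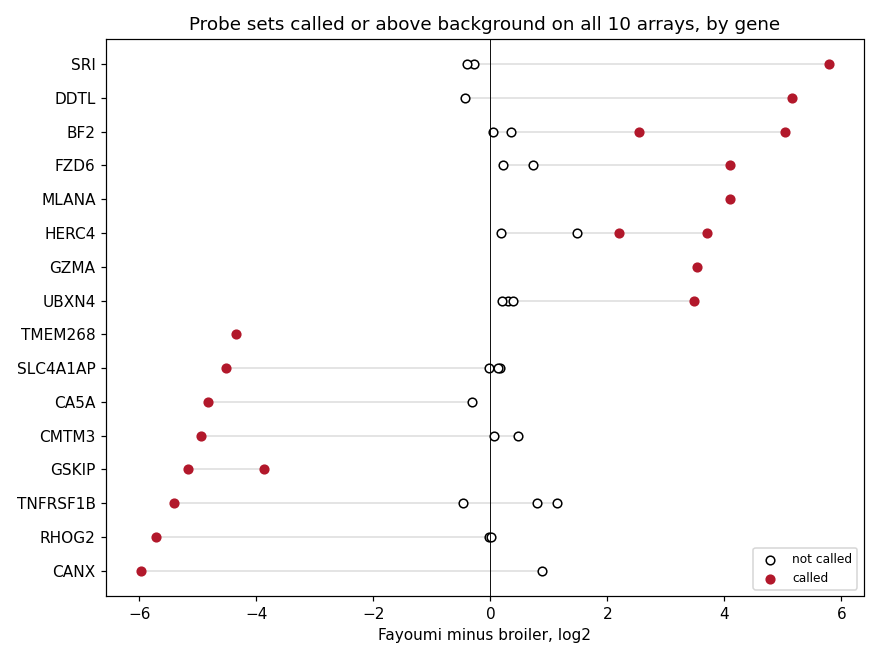
The 16 genes, 8 in each direction, had the largest single differences by the naming rule, which leaves out probe sets without a symbol and symbols starting with LOC. Each of their probe sets that passed or was above background on all 10 arrays is drawn. The horizontal axis gives its log2 difference, Fayoumi minus broiler 2 to 6. Red points passed the test and open points did not. The open points of CANX, RHOG2, CMTM3, SRI, DDTL and UBXN4 lie within 1 log2 unit of 0.

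The plot of other probe sets marks BF2, HERC4 and GSKIP as the genes of the 16 with 2 probe sets past the threshold. For description by function, every one of 13008 genes was taken at its brightest probe set. Of these genes 349 (2.68%) passed, 146 higher (1.12%) and 203 lower (1.56%), and the median difference over all genes was close to 0, with 49.3% of genes higher in Fayoumi. That last share, like the counts of higher and lower genes in a list, also counts genes at background. The 38 function lists and 11 cell marker lists hold 3177 of the genes, of which 95 (2.99%) passed. With broiler 1 added 96 of all genes (0.738%) passed, against broiler 5 and 6 alone 442 (3.40%), and without Fayoumi 2 and 3 65 (0.50%). Each list is described by its counts and its median difference, with its counts after adding broiler 1 and against broiler 5 and 6 alone, and the share of all genes that passed in the same fit is the value to read them against. Of the list members 26 passed with broiler 1 added and 119 against broiler 5 and 6. Against broiler 2 to 6 no list had more than 7 members past the threshold in 1 direction. A gene that passed only on a probe set other than its brightest is not in any of these counts.

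**Figure D4:**
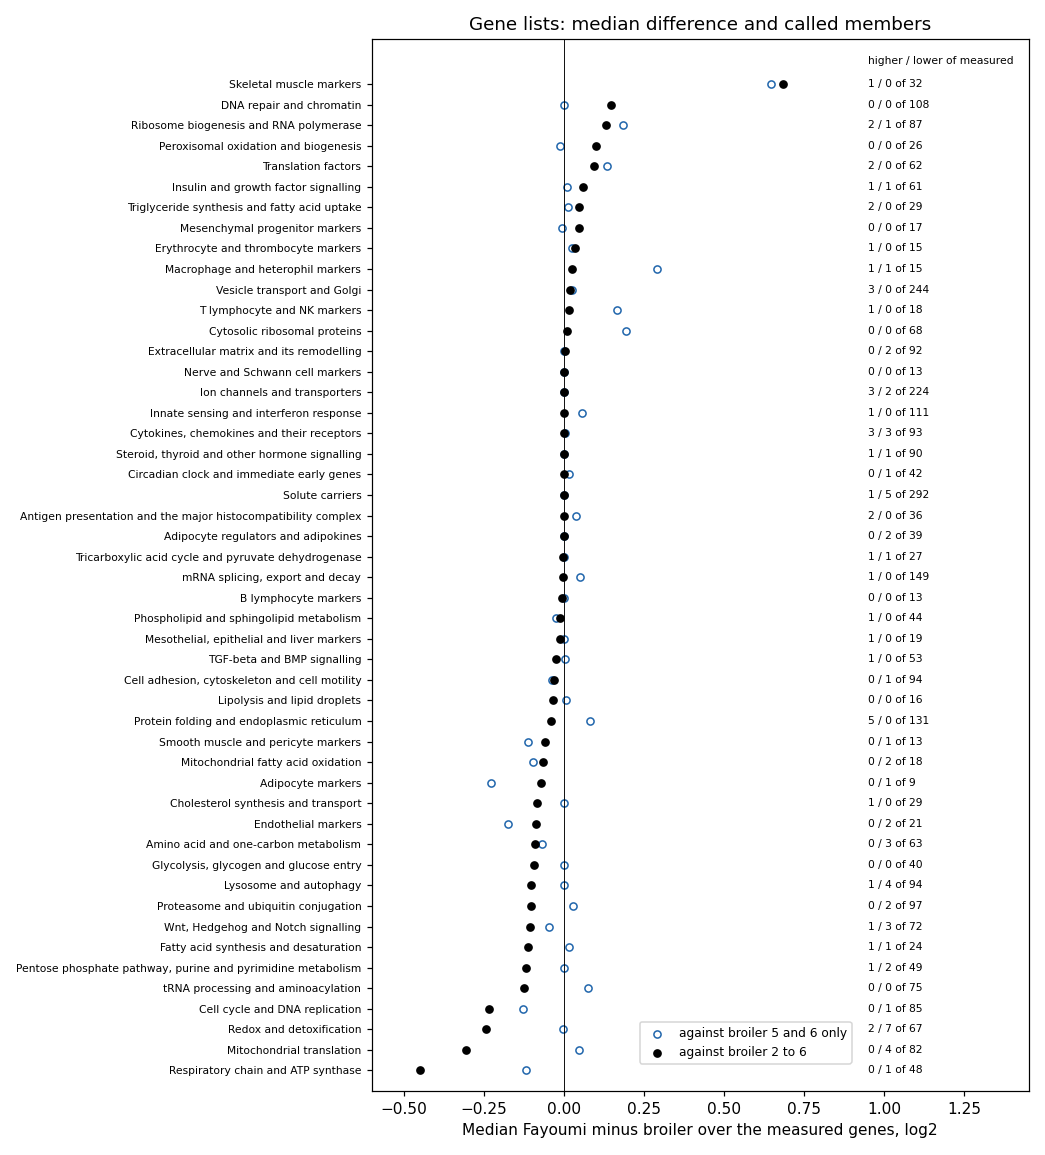
Each row is 1 of the 49 gene lists, with the median log2 difference of its genes, Fayoumi minus broiler, on the horizontal axis. Filled points are against broiler 2 to 6 and open points against broiler 5 and 6 alone, and the text at the right gives how many genes passed higher and lower of those measured. Skeletal muscle lies highest at 0.68 and the respiratory chain lowest at -0.45, while against broiler 5 and 6 the respiratory chain lies at -0.12.

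The lists of fat storage and breakdown had medians near 0, as the plot of gene lists shows, and genes passed in 1 of the lists. In mitochondrial fatty acid oxidation 2 of 18 genes fell and none rose (11.1%, against 2.68% of all genes, median -0.07). ACAD11, an acyl-CoA dehydrogenase, was at 9.65, 9.61, 9.88, 9.92 and 9.53 in Fayoumi against 10.85, 10.40, 10.51, 10.21 and 10.21 in broiler (-0.72 ± 0.14, adjusted p = 0.0429). HADH, which takes the third step of beta-oxidation, differed by -0.25 ± 0.05 (adjusted p = 0.0438). Neither line overlapped the other at either gene, but broiler 1 lay among or next to the Fayoumi values, and the adjusted p with it was 0.285 and 0.149. None of the 18 passed with broiler 1 added, and against broiler 5 and 6 alone 1 fell. None of 26 genes of peroxisomal oxidation and biogenesis and none of 16 of lipolysis and lipid droplets passed in either direction, and none did with broiler 1 added. In the fit against broiler 5 and 6 alone 1 peroxisomal gene rose and 1 fell, and none of the lipolysis genes passed. The smallest adjusted p of the former belonged to EHHADH, the peroxisomal bifunctional enzyme (difference -1.56 ± 0.31, adjusted p = 0.0525, and -1.06 with an adjusted p = 0.018 against broiler 5 and 6), and of the latter to LDAH, a hydrolase on lipid droplets (0.53 ± 0.16, adjusted p = 0.152). PLIN2, which coats lipid droplets, had another, dimmer probe set that rose by 1.26 ± 0.23 (adjusted p = 0.0394, and 0.394 with broiler 1). ACAD11 lost its call without any 1 array other than broiler 5 and 6 (0.0504 to 0.122), HADH without any 1 other than broiler 3, 5 and 6 (0.091 to 0.123), and PLIN2 without any 1 other than broiler 4 (0.0564 to 0.102).

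Each list of lipid synthesis and uptake had 1 or 2 genes that passed. The share was 8.33% in fatty acid synthesis and 6.90% in triglyceride synthesis and uptake. It was 3.45% among the cholesterol genes and 2.27% among the phospholipid genes, against 2.68% of all genes. Of 24 genes of fatty acid synthesis and desaturation 1 rose and 1 fell (median -0.11). The one that fell was SCD5, described above. ACACB, the mitochondrial acetyl-CoA carboxylase, whose product malonyl-CoA restrains fatty acid entry into mitochondria, was at 6.93, 6.62, 6.94, 6.56 and 6.24 against 5.61, 4.48, 5.07, 4.74 and 3.88 (1.90 ± 0.31, adjusted p = 0.0233). Of 29 genes of triglyceride synthesis and fatty acid uptake 2 rose and none fell (median 0.05), and both held. VLDLR, the receptor for very low density lipoproteins, was at 11.87, 11.96, 12.15, 12.20 and 12.07 against 11.23, 10.87, 11.12, 11.35 and 11.50, a 1.79-fold difference (0.84 ± 0.12, adjusted p = 0.0133). With broiler 1, at 10.65, its adjusted p was 0.0322, and all Leghorn arrays but Leghorn 2 were at 10.36 to 10.92, below Fayoumi. ACSL6, which activates long-chain fatty acids, was at 6.82, 6.17, 7.26, 7.30 and 7.38 against 4.98, 5.20, 4.90, 4.98 and 4.98 (adjusted p = 0.00486, and 0.0043 with broiler 1). OSBPL8, an oxysterol-binding protein relative that carries phosphatidylserine, was the member of 29 cholesterol genes that rose (0.89 ± 0.15, adjusted p = 0.0246), and KDSR, of sphingolipid synthesis, the one of 44 phospholipid and sphingolipid genes (1.41 ± 0.17, adjusted p = 0.00693). With broiler 1 the adjusted p was 0.173 for ACACB, 0.0813 for OSBPL8 and 0.0945 for KDSR. In these 4 lists, with broiler 1 added, SCD5, VLDLR and ACSL6 still passed and no other gene did on its brightest probe set. UGCG, of the phospholipid list, held on a probe set other than its brightest, as given above. Against broiler 5 and 6 alone 2 rose and 1 fell in fatty acid synthesis, none rose and 1 fell in triglyceride synthesis and uptake, none rose and 1 fell among the cholesterol genes, and 2 rose and 1 fell among the phospholipid genes. ACACB lost its call without Fayoumi 1, 2, 3 or 4 or broiler 3 (0.0636 to 0.0717) and OSBPL8 without Fayoumi 1, 3 or 5 or broiler 2 or 4 (0.0502 to 0.0664).

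Of 39 adipocyte regulators and adipokines 2 fell and none rose (5.13%, against 2.68% of all genes). None passed with broiler 1 added, and 1 fell against broiler 5 and 6 alone. ADIPOQ, which encodes the adipokine adiponectin, was at 11.46, 11.63, 11.98, 11.83 and 11.50 against 13.27, 13.03, 13.21, 12.77 and 12.56, a difference of -1.29 ± 0.16 or 2.44-fold (adjusted p = 0.00784). Broiler 1 was at 12.07, between the lines, and the adjusted p with it was 0.0646. Against broiler 5 and 6 alone the difference was -0.98 (adjusted p = 0.0601). It is also the 1 of 9 adipocyte markers (11.1%) that passed. KLF2, a transcription factor that restrains adipocyte differentiation in mice, differed by -0.67 ± 0.12 (adjusted p = 0.0382, and 0.124 with broiler 1), and lost the call without any 1 array other than broiler 5 and 6 (0.0683 to 0.103).

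None of 40 genes of glycolysis, glycogen and glucose entry passed, also with broiler 1 added and against broiler 5 and 6 alone. UGP2, which makes UDP-glucose for glycogen, had the smallest adjusted p (difference -0.56 ± 0.12, adjusted p = 0.0594). Of 49 genes of the pentose phosphate pathway and of purine and pyrimidine metabolism 1 rose and 2 fell (6.12%, against 2.68% of all genes, median -0.12). In the fit with broiler 1 added 1 fell, and against broiler 5 and 6 alone 4 rose and none fell. The brighter TALDO1 probe set was at 11.28, 11.38, 11.36, 11.13 and 11.66 against 12.42, 12.44, 12.62, 12.08 and 12.15, with broiler 1 at 12.30 and Leghorn 1 and 3 to 6 at 12.18 to 12.78. Fayoumi was thus the line with the low level, and the adjusted p with broiler 1 was 0.00804. RBKS, ribokinase, differed by -1.90 ± 0.30 (adjusted p = 0.0206, and 0.229 with broiler 1), and ADSS1, described above, was the gene that rose. PRTFDC1, related to HPRT1 of purine salvage, is on this list but passed on a probe set other than its brightest, and was chosen after its values were seen. That set was at 2.60 to 3.76 against 6.02 to 6.66 (-3.30 ± 0.23, adjusted p = 0.000328) and held. RBKS lost its call without any 1 array other than broiler 4 to 6 (0.0542 to 0.0609).

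The lists of the respiratory chain and of mitochondrial translation had medians below 0 against broiler 2 to 6 and nearer to 0 against broiler 5 and 6. Of 48 genes of the respiratory chain and ATP synthase 44 were lower in Fayoumi, with a median of -0.45, but 1 (2.08%) passed. That was NDUFB5, a subunit of complex I, at 12.31, 12.24, 12.51, 12.39 and 12.13 against 12.88, 12.86, 12.93, 12.70 and 12.55 (-0.47 ± 0.09, adjusted p = 0.0491). Against broiler 5 and 6 alone the median of the list was -0.12, with 1 gene that rose and 1 that fell, and the NDUFB5 difference -0.31 (adjusted p = 0.329). Of 82 genes of mitochondrial translation 4 fell and none rose (4.88%, against 2.68% of all genes). Of the 82 genes 66 were lower, with a median of -0.31. Against broiler 5 and 6 alone the median was 0.05, and 4 fell and 2 rose. MRPS9, a protein of the mitochondrial ribosome, was at 9.09 to 9.22 against 9.49 to 9.72 (-0.40 ± 0.06, adjusted p = 0.0122) and held. MRPS17, another such protein, differed by -0.48 ± 0.07 and MTERF3, which regulates mitochondrial transcription, by -0.62 ± 0.11 (adjusted p = 0.0182 and 0.0335). The tricarboxylic acid cycle had 1 gene of 27 that rose, IDH3A, an isocitrate dehydrogenase subunit (0.86 ± 0.17, adjusted p = 0.0473), and 1 that fell, SUCLG1, a succinate-CoA ligase subunit (-0.61 ± 0.12, adjusted p = 0.0495). The share that passed was 7.41%, beside 2.68% of all genes, and against broiler 5 and 6 alone 1 gene also passed in each direction. None of the respiratory chain or tricarboxylic acid cycle genes passed and 2 of mitochondrial translation fell with broiler 1 added.

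The medians of the lists by array show which arrays carried these shifts. For the respiratory chain the median over genes, each taken relative to its median over the 10 arrays, was 0.78, 0.27 and 0.70 on broiler 2, 3 and 4, near 0 on broiler 5 and 6, and -0.23 to 0.05 on the Fayoumi arrays. For mitochondrial translation it was 0.62, 0.25 and 0.67 on broiler 2, 3 and 4, -0.04 and -0.10 on broiler 5 and 6, and -0.15 to 0.01 on the Fayoumi arrays. Broiler 5 and 6 thus lay with Fayoumi, and on the 10 arrays compared the ACTB values given above moved with the same split. Broiler 1 had an ACTB gap of 1.91, within the range of broiler 2 to 4, but medians of -0.04 and 0.00 for these lists. The part of the split between broiler 2 to 4 and broiler 5 and 6 in the mitochondrial differences was not tested. With broiler 1 the adjusted p was 0.324 for NDUFB5, 0.0206 for MRPS9, 0.101 for MRPS17, 0.0344 for MTERF3, 0.204 for IDH3A and 0.441 for SUCLG1. NDUFB5 lost its call without any 1 array other than broiler 6 (0.0581 to 0.133), IDH3A and SUCLG1 without any 1 other than broiler 5 and 6 (0.0779 to 0.129 and 0.0979 to 0.122), MTERF3 without any 1 other than broiler 4 to 6 (0.0579 to 0.093), and MRPS17 without Fayoumi 1, 2 or 4 or broiler 4 (0.0506 to 0.0595).

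**Figure D5:**
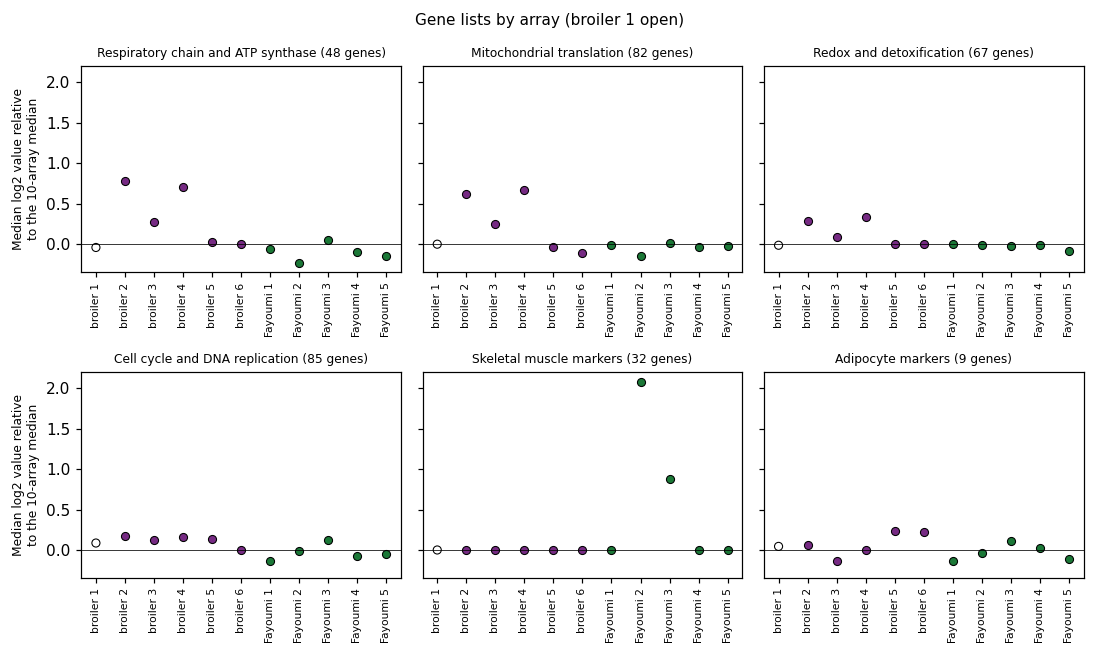
For 6 gene lists the vertical axis gives the median over the genes of the list of the log2 level relative to the median of that gene over the 10 arrays compared. The horizontal axis holds those 10 arrays and broiler 1, drawn as an open point. Broiler 2, 3 and 4 lie above all other arrays for the respiratory chain and mitochondrial translation, and Fayoumi 2 and 3 lie highest for skeletal muscle at 2.08 and 0.88.

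The plot of list medians by array includes redox and detoxification, the function list with the most members past the threshold. Of its 67 genes 7 fell and 2 rose (13.4%, against 2.68% of all genes). The median was -0.24, and 0.00 against broiler 5 and 6 alone. Against those 2 arrays 5 fell and 2 rose, with broiler 1 added 1 fell and 1 rose, and without Fayoumi 2 and 3 4 fell and none rose. SOD2, the mitochondrial superoxide dismutase, was at 12.55, 12.46, 12.63, 12.57 and 12.44 against 13.11, 13.03, 12.97, 13.13 and 13.16, a 1.47-fold difference (-0.55 ± 0.05, adjusted p = 0.00121), and broiler 1 at 12.97 lay with broiler, so that it held. ALDH2, which oxidises acetaldehyde and lipid aldehydes, was at 10.73 to 10.81 against 11.42 to 11.77 (-0.79 ± 0.06, adjusted p = 0.000674). GSTK1, a glutathione transferase of mitochondria and peroxisomes, was at 9.57 to 9.82 against 10.48 to 10.87 (-0.97 ± 0.09, adjusted p = 0.00194). At both genes broiler 1, at 10.71 and 9.72, lay with Fayoumi, and the adjusted p with it was 0.168 and 0.119. The 2 that rose were peroxiredoxins, which reduce peroxides, and were chosen after their values were seen. PRDX3, of mitochondria, was at 11.04 to 11.21 against 9.38 to 10.29 (1.40 ± 0.16, adjusted p = 0.00442) and held, and PRDX1 differed by 0.23 ± 0.04 (adjusted p = 0.0388, and 0.053 with broiler 1). PRDX1 lost its call without any 1 array other than Fayoumi 5 (0.0516 to 0.108).

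In amino acid and one-carbon metabolism 3 of 63 genes fell and none rose (4.76%, against 2.68% of all genes). With broiler 1 added 2 fell, and against broiler 5 and 6 alone 7 fell and 2 rose. SAT1, which acetylates the polyamines spermidine and spermine, was at 11.97, 11.94, 12.14, 12.18 and 12.28 against 13.97, 14.23, 14.16, 14.04 and 14.13, a 4.01-fold difference (-2.0 ± 0.08, adjusted p = 8.86e-06). Broiler 1 was at 14.15, Leghorn 1 and 3 to 6 at 13.90 to 14.47, and the adjusted p with broiler 1 was 9.94e-07. The level of every Fayoumi array was thus below that of all these broiler and Leghorn arrays, although 2 other SAT1 probe sets differed by -0.11 and 0.14. The other genes belong to the breakdown of branched-chain amino acids. BCKDHB, a subunit of the branched-chain ketoacid dehydrogenase, was at 8.77, 8.80, 9.04, 8.96 and 8.46 against 10.20, 9.97, 10.12, 10.05 and 10.14 (-1.29 ± 0.11, adjusted p = 0.000769) and held. HIBCH, which acts later in valine breakdown, was at 6.63 to 7.01 against 7.68 to 7.99 (-0.99 ± 0.10, adjusted p = 0.00225), with broiler 1 at 6.94 and an adjusted p with it of 0.101.

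Signalling lists each had few members past the threshold. Of 72 genes of Wnt, Hedgehog and Notch signalling 3 fell and 1 rose (5.56%, against 2.68% of all genes). With broiler 1 added 2 fell, and against broiler 5 and 6 alone 3 fell and 2 rose. The gene that rose, WIF1, a secreted inhibitor of Wnt ligands chosen after its values were seen, was at 3.66, 6.47, 6.82, 5.79 and 6.12 against 2.71, 2.80, 2.29, 2.85 and 2.83 (3.08 ± 0.55, adjusted p = 0.0338, and 0.662 with broiler 1). FZD6, described above, is also on the list and rose on a probe set other than its brightest. Of those that fell, besides GSKIP, TCF7L2 was at 4.76, 3.77, 4.03, 3.30 and 3.70 against 6.89, 7.07, 7.37, 6.65 and 5.68 (-2.82 ± 0.37, adjusted p = 0.0091) and held, although 1 of its other probe sets passed in the opposite direction. RSPO2, a secreted enhancer of Wnt signals, differed by -1.15 ± 0.18 (adjusted p = 0.0182, and 0.0775 with broiler 1). Of 53 genes of TGF-beta and BMP signalling 1 (1.89%) rose. That was BMP7, a growth factor linked in mice to brown adipocyte formation, at 7.05, 6.99, 7.46, 7.15 and 6.33 against 3.31, 4.63, 2.68, 3.77 and 4.29 (3.26 ± 0.39, adjusted p = 0.00562), with broiler 1 at 7.01, as in Fayoumi, and an adjusted p with it of 0.161. Of 61 genes of insulin and growth factor signalling 1 rose, PDGFD, and 1 fell (3.28% passed), PDGFRB, the receptor that PDGFD binds. PDGFD was at 10.35 to 10.43 on the Fayoumi and 8.27 to 9.11 on the broiler arrays. PDGFRB was at 10.07 to 10.66 against 10.90 to 11.30 (-0.67 ± 0.12, adjusted p = 0.0294, and 0.426 with broiler 1). Of the 53 none passed with broiler 1 added, and against broiler 5 and 6 alone 1 rose and 1 fell. Of the 61, PDGFD alone passed with broiler 1 added and 1 rose against broiler 5 and 6 alone. WIF1 lost its call without any 1 array other than Fayoumi 1 (0.0549 to 0.0998), RSPO2 without Fayoumi 2 or 4 (0.0595 and 0.0606) and PDGFRB without any 1 array other than Fayoumi 1 and 5 and broiler 6 (0.0504 to 0.0897).

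The hormone list had 1 of 90 genes that rose and 1 that fell (2.22%, against 2.68% of all genes). In both cases broiler 1 lay with broiler and the gene passed with it added. The count was 1 that fell against broiler 5 and 6 alone. NPY, the neuropeptide Y precursor, which in mammals acts on adipocytes as well as on appetite, was at 3.45, 3.40, 4.76, 4.51 and 4.26 against 6.03, 5.95, 7.38, 6.10 and 6.54 (-2.32 ± 0.38, adjusted p = 0.0226, and 0.0272 with broiler 1). SCTR, the secretin receptor, was at 5.11, 5.45, 5.58, 3.90 and 5.64 against 2.30 to 2.36 (adjusted p = 0.00452, and 0.00363 with broiler 1). In the list of clock and immediate early genes 1 of 42 (2.38%) fell, DUSP1, a phosphatase of MAP kinases (-0.96 ± 0.18, adjusted p = 0.0433, and 0.101 with broiler 1). No clock gene passed with broiler 1 added or against broiler 5 and 6 alone. NPY lost its call without Fayoumi 1, 2, 4 or 5 (0.0526 to 0.0624) and DUSP1 without any 1 array other than broiler 5 (0.0645 to 0.122).

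The lists of matrix, adhesion and division had shares of genes that passed below that of all genes. In extracellular matrix 2 of 92 fell. COL6A2, a chain of collagen VI, was at 13.90 to 14.03 against 14.18 to 14.40 (-0.28 ± 0.04, adjusted p = 0.0211) and TIMP2, a metalloproteinase inhibitor, at 10.89 to 11.29 against 11.81 to 13.15 (-1.28 ± 0.26, adjusted p = 0.05, just under the threshold). In adhesion, cytoskeleton and motility 1 of 94 fell, RAC3, which acts on the actin cytoskeleton (-0.93 ± 0.18, adjusted p = 0.0435). In cell cycle and DNA replication 1 of 85 fell, INCENP, of the chromosomal passenger complex (-1.10 ± 0.20, adjusted p = 0.0341), and the median was -0.23. In DNA repair and chromatin none of 108 passed, and ERCC4, a repair nuclease, had the smallest adjusted p (0.68 ± 0.14, adjusted p = 0.0619). With broiler 1 the adjusted p was 0.494, 0.0986, 0.0772 and 0.205 for COL6A2, TIMP2, RAC3 and INCENP, and no gene of these 4 lists passed. Set against broiler 5 and 6 alone, 1 matrix gene rose, 1 adhesion gene rose and 2 fell, 1 cell cycle gene fell and no repair gene passed. CDK5RAP2, a centrosome protein outside these lists that was chosen after its values were seen, rose on 2 probe sets by 2.15 ± 0.34 and 1.61 ± 0.27 (adjusted p = 0.0211 and 0.0274, and 0.0255 and 0.0319 with broiler 1). It lost the calls without Fayoumi 1, 2, 3 or 4 or broiler 3 or 4 (0.0543 to 0.0681) and without any Fayoumi array or broiler 2 or 3 (0.0655 to 0.0849). COL6A2 lost its call without any Fayoumi array or broiler 3 (0.0507 to 0.0603), TIMP2 without any 1 array other than broiler 6 (0.0506 to 0.138), RAC3 without any 1 other than broiler 5 and 6 (0.071 to 0.122) and INCENP without any 1 other than Fayoumi 1 and 3 (0.0565 to 0.1).

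Genes that make and process RNA and protein moved in both directions. Of 87 genes of ribosome biogenesis and RNA polymerase 2 rose and 1 fell (3.45%, near the 2.68% of all genes, median 0.13). All 3 held, while against broiler 5 and 6 alone 3 rose and none fell. Besides SHQ1 these were WDR43, of ribosomal RNA processing, at 7.84 to 8.26 against 6.95 to 7.34 (0.91 ± 0.10, adjusted p = 0.0038), and POLR2B, the second largest subunit of RNA polymerase II, at 10.57 to 10.75 against 10.88 to 11.03 (-0.31 ± 0.04, adjusted p = 0.0107). Of 62 translation factors 2 (3.23%) rose, 1 with broiler 1 added, and 6 rose and 2 fell against broiler 5 and 6 alone. EIF5A2, which helps ribosomes past difficult peptide stretches, was at 9.47 to 9.82 against 8.64 to 9.03 (0.89 ± 0.09, adjusted p = 0.00296) and held, and EEF1B2, an elongation factor subunit, differed by 0.43 ± 0.08 (adjusted p = 0.0335, and 0.139 with broiler 1). None of 68 cytosolic ribosomal proteins passed, where RPS24 had the smallest adjusted p (0.33 ± 0.10, adjusted p = 0.17), and none of 75 genes of tRNA processing, where TYW3, which modifies phenylalanine tRNA, did (-0.54 ± 0.11, adjusted p = 0.0549). Of 149 genes of splicing, export and decay 1 (0.671%) rose. That was RBM25, a splicing factor (2.93 ± 0.46, adjusted p = 0.0206), with broiler arrays at 6.33, 7.17, 6.40, 8.06 and 8.74 and an adjusted p of 0.0825 with broiler 1. The ribosomal protein list moved with the split of the broiler arrays. Its median was 0.01 against broiler 2 to 6 and 0.19 against broiler 5 and 6, where 3 rose, and by array it was 0.07 to 0.18 on broiler 2 to 4 and -0.18 and -0.21 on broiler 5 and 6. The part of that split in it was not tested. None of the tRNA genes passed and 2 splicing genes rose against broiler 5 and 6, and with broiler 1 added no gene of these 3 lists passed. EEF1B2 lost its call without any 1 array other than broiler 3 (0.0549 to 0.0963) and RBM25 without any Fayoumi array or broiler 3 (0.0573 to 0.0648).

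Of 131 genes of protein folding and the endoplasmic reticulum 5 rose and none fell, with a median of -0.04. The share that passed was 3.82%, near the 2.68% of all genes. With broiler 1 added 1 rose, against broiler 5 and 6 alone 4 rose, and without Fayoumi 2 and 3 none passed. These counts are of brightest probe sets. CANX and SEC61A2, also on the list, passed only on another set, and that of CANX fell and held, as described above. DNAJA1, a co-chaperone of HSP70, was at 14.16, 14.56, 14.71, 14.42 and 14.43 against 13.58, 13.33, 13.31, 13.87 and 13.86 (0.87 ± 0.15, adjusted p = 0.0296, and 0.0475 with broiler 1). DNAJB6, another co-chaperone, differed by 0.43 ± 0.08 and SEC11C, of the signal peptidase, by 0.36 ± 0.06 (adjusted p = 0.0316 and 0.0303, and 0.346 and 0.589 with broiler 1). Of 97 genes of the proteasome and ubiquitin conjugation 2 (2.06%) fell. SKP1, of ubiquitin ligase complexes, was at 13.43 to 13.61 against 13.65 to 13.80 (-0.20 ± 0.04, adjusted p = 0.0441) and UBE2T, a conjugating enzyme of DNA repair, at 6.83 to 7.97 against 8.41 to 9.68 (-1.78 ± 0.35, adjusted p = 0.0462). With broiler 1 their adjusted p was 0.633 and 0.304, and no gene of that list passed, while 1 fell against broiler 5 and 6 alone. DNAJA1 lost its call without any 1 array other than Fayoumi 1 and broiler 5 and 6 (0.0641 to 0.0919), DNAJB6 and UBE2T without any 1 other than broiler 5 and 6 (0.0542 to 0.0978 and 0.0626 to 0.126), SEC11C without any 1 other than broiler 3 to 5 (0.0518 to 0.0857) and SKP1 without any 1 other than broiler 3 (0.0549 to 0.122).

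In vesicle transport and the Golgi 3 of 244 genes rose (1.23%, against 2.68% of all genes), and none passed with broiler 1 added. Against broiler 5 and 6 alone, where 3.40% of all genes passed, 12 rose and 4 fell. RAB22A, a small GTPase of endosomes, was at 10.86, 10.80, 10.56, 10.60 and 10.74 against 9.64, 9.75, 9.59, 9.69 and 9.52 (1.08 ± 0.07, adjusted p = 0.000235), with broiler 1 at 10.53, as in Fayoumi, and an adjusted p with it of 0.0566. VPS13A, a lipid transfer protein, differed by 1.59 ± 0.26 and AP1M1, of the AP-1 adaptor, by 0.79 ± 0.14 (adjusted p = 0.0219 and 0.0353, and 0.0725 and 0.233 with broiler 1). In lysosome and autophagy 4 of 94 fell and 1 rose (5.32%, against 2.68% of all genes, median -0.10). With broiler 1 added 1 rose and none fell, and against broiler 5 and 6 alone 2 rose and 2 fell. The gene that rose, MITF, a transcription factor of lysosomal and pigment cell genes, was at 8.61, 8.71, 8.08, 8.26 and 8.06 against 6.33, 6.69, 6.28, 6.88 and 6.65 (1.78 ± 0.17, adjusted p = 0.00195) and held. ATG10, of autophagosome formation, differed by -0.46 ± 0.06 and PSAP, the precursor of the saposins that activate sphingolipid breakdown, by -0.42 ± 0.06 (adjusted p = 0.0107 and 0.0149, and 0.448 and 0.241 with broiler 1). AP1M1 lost its call without any 1 array other than broiler 5 and 6 (0.0622 to 0.105) and VPS13A without Fayoumi 4 or 5 or broiler 2, 3 or 4 (0.0586 to 0.0698).

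Of 292 solute carriers 5 fell and 1 rose (2.05%, against 2.68% of all genes). On these brightest probe sets none passed with broiler 1 added, and 2 fell and 4 rose against broiler 5 and 6 alone. Another 5 carriers passed only on a further probe set, among them SLC16A10, which held as given above. SLC16A1, the carrier of lactate and ketone bodies, was at 8.05, 8.18, 8.16, 8.28 and 8.86 against 9.94, 9.42, 9.87, 9.35 and 9.32 (-1.27 ± 0.19, adjusted p = 0.0169, and 0.0555 with broiler 1). SLC1A6, a glutamate carrier, differed by -1.06 ± 0.19 and SLC44A3, a choline carrier relative, by -1.61 ± 0.30 (adjusted p = 0.0352 and 0.0387, and 0.461 and 0.13 with broiler 1). Of 224 ion channels and transporters 3 rose and 2 fell (2.23%), 1 rose with broiler 1 added, and 1 rose and 2 fell against broiler 5 and 6 alone. P2RX5, an ATP-gated channel, was at 4.69 to 6.31 against 2.86 to 4.07 (2.07 ± 0.34, adjusted p = 0.0228, and 0.0222 with broiler 1). ITPR2, a calcium release channel, differed by -0.37 ± 0.05 and KCNMB4, a potassium channel subunit, by -1.16 ± 0.20 (adjusted p = 0.0133 and 0.0321, and 0.153 and 0.181 with broiler 1). SLC16A1 lost its call without Fayoumi 1, 2, 3 or 4 (0.0516 to 0.0576), SLC1A6 without any 1 array other than broiler 6 (0.0554 to 0.0988), SLC44A3 without any 1 other than broiler 5 (0.0517 to 0.103), P2RX5 without any 1 other than Fayoumi 1 and 5 and broiler 5 and 6 (0.0514 to 0.0729), and KCNMB4 without any 1 other than broiler 3 and 4 (0.0508 to 0.0978).

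A few immune genes passed, in both directions. Of 93 cytokines, chemokines and receptors 3 rose and 3 fell (6.45%, against 2.68% of all genes). With broiler 1 added 1 fell, and against broiler 5 and 6 alone 1 rose and 2 fell. TNFRSF1B and CMTM3, which fell, and DDTL, which rose, are also on the list. They held on a probe set other than their brightest, as described above, and are not in these counts. CXCR4, the receptor for CXCL12 on leukocytes and progenitors, was at 6.97, 7.93, 8.31, 7.53 and 7.38 against 10.22, 9.64, 10.35, 10.17 and 10.32, a 5.72-fold difference (-2.52 ± 0.26, adjusted p = 0.00292). Broiler 1 was at 6.78 and Leghorn 1 and 3 to 6 at 5.64 to 7.56, all with Fayoumi, and the adjusted p with broiler 1 was 0.306. CMTM8, of the chemokine-like factor family, was at 7.04 to 7.78 against 9.04 to 9.72 (-1.94 ± 0.18, adjusted p = 0.00178) and held. IL6, the cytokine interleukin 6, was at 5.47, 5.41, 5.0, 5.32 and 5.65 against 4.22, 3.66, 3.78, 3.66 and 3.66 (adjusted p = 0.00184), with broiler 1 at 5.34 and an adjusted p with it of 0.131. Of 111 genes of innate sensing and the interferon response 1 (0.901%) rose, IFI27L2, a relative of an interferon-induced gene (1.58 ± 0.18, adjusted p = 0.00519, and 0.417 with broiler 1). The list of antigen presentation had 2 of 36 that rose, BF2 and HHLA2, and none that fell (5.56%, against 2.68% of all genes). When broiler 1 was added, BF2 alone passed on its brightest set and no gene of innate sensing did. The fit against broiler 5 and 6 alone gave 2 that rose in antigen presentation, and 2 that rose and 1 that fell in innate sensing.

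Markers of other cell types were measured to show which cells moved with the comparison. The share that passed, beside 2.68% of all genes, was 3.125% for skeletal muscle, 9.52% for endothelium and 13.3% for macrophages and heterophils. It was 5.56% for T lymphocytes and NK cells, 6.67% for erythrocytes and thrombocytes, 5.26% for mesothelium, epithelium and liver and 7.69% for smooth muscle and pericytes. In lists this short 1 gene makes a large share. Of 32 skeletal muscle markers 30 were higher in Fayoumi, with a median of 0.68, and the median was 0.00 without Fayoumi 2 and 3. The 30 include markers without signal, since 5 of the 32 were at background on all 10 arrays. Only 11 were above background on all 10. TNNC1, the calcium-binding troponin of slow and cardiac muscle, passed, at 9.11, 9.10, 9.15, 8.66 and 8.54 against 6.25, 5.68, 6.08, 5.0 and 4.86 (3.34 ± 0.30, adjusted p = 0.00144). It held, and without Fayoumi 2 and 3 its adjusted p was 0.0365, so that its difference was also present on the Fayoumi arrays with less muscle RNA. Of 21 endothelial markers 2 fell, the transcription factors LMO2 (-1.17 ± 0.20, adjusted p = 0.0274, and 0.0407 with broiler 1) and SOX7 (-1.13 ± 0.19, adjusted p = 0.0298, and 0.0591 with broiler 1). Of 15 macrophage and heterophil markers TIMD4, a receptor for phosphatidylserine on dying cells, rose (1.79 ± 0.30, adjusted p = 0.0248) and MARCO, a scavenger receptor, fell, at 3.00 to 3.25 against 3.43 to 4.36 (adjusted p = 0.0427). With broiler 1 the adjusted p was 0.0706 and 0.21. LMO2 lost its call without any 1 array other than Fayoumi 5 and broiler 2 and 5 (0.0501 to 0.0747), SOX7 without any 1 other than Fayoumi 5 and broiler 5 (0.0503 to 0.0878), TIMD4 without any 1 other than Fayoumi 4 and broiler 5 and 6 (0.0579 to 0.0751) and MARCO without any 1 other than broiler 4 (0.0594 to 0.12).

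Of 18 markers of T lymphocytes and NK cells GZMA rose, of 15 of erythrocytes and thrombocytes RHAG, a red cell membrane protein (1.26 ± 0.24, adjusted p = 0.0453, and 0.374 with broiler 1), and of 19 of mesothelium, epithelium and liver TTR, the thyroid hormone carrier transthyretin (3.13 ± 0.53, adjusted p = 0.0275, and 0.176 with broiler 1). GZMA was at 6.64, 7.77, 7.84, 7.36 and 7.76 against 3.65, 4.02, 2.96, 4.10 and 5.01, with broiler 1 at 8.13 and Leghorn 1 and 3 to 6 at 6.63 to 8.90, so that broiler 2 to 6 were the arrays with the low level. Of 13 smooth muscle and pericyte markers PDGFRB fell. None passed among 13 B lymphocyte markers, 17 mesenchymal progenitor markers and 13 nerve markers, where BCL11A, MFAP5 and SYP had the smallest adjusted p (0.159, 0.122 and 0.289). RHAG lost its call without any 1 array (0.0611 to 0.121) and TTR without any 1 other than Fayoumi 1 and broiler 2 and 4 (0.0508 to 0.0756). Of all 11 marker lists, TNNC1 and LMO2 were the members that passed with broiler 1 added. On broiler 5 and 6 alone as the comparison, 1 muscle and 1 T lymphocyte marker rose, 1 mesenchymal marker rose, and 1 marker each of adipocytes, macrophages and B lymphocytes fell. The part of these cell types in the differences of other genes was not tested.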

How the data were processed

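Values are the log2 expression table that the authors deposited, 1 value per probe set and array. Per the submitters' processing notes R 2.13.2, RMA and GCRMA were used; which of the latter 2 methods gave the values is not stated. The deposited log2 values run from 2.26 to 16.2, and the lowest value is shared by 36.1% of chicken values over the 17 arrays, so differences against it are compressed. The depth of an array is its signal over background, and the number of arrays limits the precision. Background was set at the 95th percentile over the 80 blank or reporter sets.

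The 37693 chicken probe sets entered a fit in limma 3.58.1 under R 4.3.3 (lmFit and eBayes, line as the only factor, 10 arrays) and adjusted by Benjamini-Hochberg over all of them, with an adjusted p under 0.05 as the threshold of the two-sided moderated test. All adjusted p-values are limma's. The fit was also run on simulated data with known changes. Noise there was drawn independently for each value, without the split of the broiler arrays or the shared lowest value. How those features affect the calls was therefore not tested. Tables and figures were made with Python 3.11.15, pandas 2.3.3 and matplotlib 3.10.9. Symbols came from the platform annotation, updated by gene number from RefSeq assembly bGalGal1.mat.broiler.GRCg7b, used for names alone: 27166 probe sets had 1 symbol, 177 several and 10350 none. A gene in a list is its probe set with the highest mean. Where most arrays of the lower line shared a value within 0.001, levels are given without a fold, and where none was above background the fold is a bound.

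The arrays compared, the gene lists and the tests were chosen with earlier results of these data known. Genes were named by the following rule. Among genes with 2 or more probe sets past the threshold in 1 direction and none in the other, the 8 in each direction with the largest mean difference were named. Also named were the 8 in each direction with the largest single difference, no overlap and a log2 mean of at least 6 in the higher line. For these the probe set needed 1 symbol that does not start with LOC. From each list the up to 3 members with the smallest adjusted p among those that passed were named, or the 1 with the smallest where none did. Alternatives were leaving out each array, adding broiler 1, broiler 5 and 6 alone, leaving out Fayoumi 2 and 3, fits on more arrays, centring, renormalizing, a filter on dim probe sets, array weights, a trended robust variance, and the mean over probe sets of a gene.

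The replicate numbers were checked for pairing: over 19797 probe sets the deviations of arrays with the same number correlated at -0.171, -0.119, -0.050 and -0.005 for numbers 2 to 5, so that arrays were not treated as pairs.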

Additional observations from a re-analysis of the deposited data

Results flagged for a closer look

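In 14 of the 246 groups of 5 values checked for the named probe sets, 1 array lay far from the other 4 of its line, by a criterion that chance meets in about 1 group in 20. All values are log2 levels. Fayoumi 2 stood apart for GIT2 at 8.23 (the others 7.57 to 7.76) and for ADSS1 at 6.39 (4.71 to 5.15), in both cases farther from broiler. Fayoumi 4 stood apart for LRRC40 at 3.38 (3.14 to 3.20), COL6A2 at 13.90 (13.99 to 14.03) and MARCO at 3.25 (3.00). Fayoumi 5 did so for PRPSAP1 at 5.62 (6.29 to 6.55), CMTM3 at 2.45 (2.26) and SLC16A1 at 8.86 (8.05 to 8.28), and Fayoumi 1 for MRPS9 at 9.09 (9.20 to 9.22). Among the broiler arrays, broiler 5 stood apart for PRPSAP1 at 6.83 (7.82 to 8.08) and VPS13A at 3.80 (2.87 to 3.05), broiler 3 for ACSL6 at 5.20 (4.90 to 4.98) and CXCR4 at 9.64 (10.17 to 10.35), and broiler 2 for IL6 at 4.22 (3.66 to 3.78). None of these values reached the range of the other line.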

How the results depend on the processing

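No named probe set changed its direction under any alternative. The counts were 681 probe sets, 309 higher and 372 lower, 47 genes with 2 or more probe sets past the threshold and 95 list members. Leaving out each array in turn gave 322 to 788 probe sets, 143 to 312 higher, 176 to 481 lower, 17 to 51 genes and 41 to 116 list members, and 276 of the 681 passed in each of those 10 fits. In the same order the counts were 208, 103, 105, 10 and 26 with broiler 1 added, 269, 135, 134, 14 and 39 on all 17 arrays as labelled, 154, 79, 75, 3 and 23 without Fayoumi 2 and 3, and 67, 35, 32, 2 and 8 with a trended robust variance. They were 1113, 430, 683, 73 and 156 with arrays centred on the median and 1480, 657, 823, 111 and 212 with a filter on dim probe sets, which also tests fewer probe sets. With the mean over the probe sets of a gene 248 list members passed. Against broiler 5 and 6 alone the counts were 910, 423, 487, 51 and 119, and 686, 307, 379, 49 and 80 on all arrays but broiler 1 and Leghorn 2. Array weights gave 564, 245, 319, 41 and 67, and a second quantile normalization 721, 293, 428, 48 and 105. The cause of these changes was not tested. Of the 123 named probe sets 114 had passed. Of these 75 lost their call with broiler 1, 70 without Fayoumi 2 and 3, 48 against broiler 5 and 6 and 87 with a trended robust variance. The low end of the scale limits all differences against arrays at background.

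The replicate block left 7 probe sets, 4 higher and 3 lower, 0 genes with 2 or more probe sets and 1 list member, on a design in which Fayoumi 1 and broiler 6 have no array of the same number in the other line. Arrays of the same number did not correlate positively, by the values given with the methods, and the main fit has no block. Arrays of unlike number correlated at -0.202 to 0.189. So few same-number values cannot exclude a step shared by number, and whether the arrays are paired was not otherwise tested. At an unadjusted p under 0.05 the fit without the block had 6359 probe sets.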

Other observations

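Genes of pigment cells, chosen after their values were seen, were higher in Fayoumi than in broiler 2 to 6 at some probe sets. MLANA, a melanosome protein, was at 6.0, 7.82, 7.88, 6.18 and 6.88 on Fayoumi 1 to 5 against 2.71 to 3.13 on broiler 2 to 6, as given in the results, with 7.09 on broiler 1, 5.74 to 8.79 on Leghorn 1 and 3 to 6 and 3.13 on Leghorn 2. DCT, a tautomerase of melanin synthesis, was at 4.27, 5.99, 5.55, 4.60 and 4.28 against 2.26 to 2.94 (difference 2.33 ± 0.36, limma's adjusted p = 0.0193, and 0.66 with broiler 1). Broiler 1 was at 8.11, Leghorn 1 and 3 to 6 at 6.63 to 9.25 and Leghorn 2 at 2.64. The MLANA and DCT sets meet the condition for the probe sets that placed broiler 1 and Leghorn 2. Their values on those arrays therefore give no further support for that placing. DCT lost its call without Fayoumi 3 (or without broiler 3 or 4), with an adjusted p of 0.0526 to 0.053.

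MITF, described in the results, also passed, by 1.78 ± 0.17 on 1 probe set that held (limma's adjusted p = 0.00195, and 0.0344 with broiler 1). None of its other probe sets passed, and neither did the other pigment genes examined. TYRP1, of melanin synthesis like DCT, was at 3.16, 5.5, 5.73, 3.53 and 4.48 against 2.50 to 2.82 (1.74 ± 0.51, adjusted p = 0.149). For GPNMB, a melanosome and macrophage glycoprotein, 1 probe set differed by 1.52 ± 0.34 (adjusted p = 0.0752). KIT, a receptor of melanoblasts and other cells, differed by 0.70 ± 0.45 (adjusted p = 0.515). SOX10, a transcription factor of the neural crest, was at 2.95 to 3.66 against 3.21 to 4.69 on its brighter probe set (-0.17 ± 0.30, adjusted p = 0.871). PMEL and TYR lay at or near background on the 10 arrays.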
